A study of Mus musculus with 22 samples.

Results

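Chromatin accessibility was described at 10 genes of retinoic acid signalling in the mouse testis: Stra8, a retinoic acid target of germ cells, the receptor genes Rara, Rarb, Rarg and Rxra, the degrading enzymes Cyp26a1 and Cyp26b1, the producing enzymes Rdh10 and Aldh1a2, and the binding protein Crabp1. The genes were chosen by name, and every peak that overlapped their gene body or the 5 kb on either side was taken, which gave 52 of 96049 peaks (0.0541%). Of these peaks, 42 lay in a gene body and 10 in a flank. They numbered 6 at Stra8, 11 at Rara, 12 at Rarb, 5 at Rarg, 4 at Rxra, 4 at Cyp26a1, 2 at Cyp26b1, 3 at Rdh10, 2 at Aldh1a2 and 3 at Crabp1.

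The study profiled open chromatin by ATAC-seq, in which the transposase Tn5 cuts accessible DNA, to find what deleting TERT, the enzyme of telomerase that extends telomeres, does in spermatogonia. The 22 libraries came from germ cells of C57BL/6 mice aged 8 to 12 weeks, purified by FACS. Spermatogonia were collected on day 7 after tamoxifen, which activates the Cre recombinase, and were sorted by the surface proteins MCAM and KIT. TERT-deleted mice gave 3 MCAM-high, 3 MCAM-medium and 3 KIT-positive libraries, and control mice, titled TERT-hetero, gave 3, 2 and 3 libraries of these populations. MCAM-high and MCAM-medium cells are undifferentiated spermatogonia and KIT-positive cells are differentiating ones, per the labels. The genotype entry TertCreER/+:Rosalsl-Tdtomato/+ stands on deleted and control libraries alike, so it does not separate them, and the genotype of a library rests on its title. By this entry the controls also carry the Cre allele at Tert, which cannot be checked here. Their labels give day 7 after tamoxifen as well. A further 5 libraries came from later germ cells of TertTdtomato/+ mice without a tamoxifen time point. Their titles name 2 spermatocyte and 3 round spermatid libraries, the library names disagree with the titles for 4 of the 5, and all 5 names carry the same source mark, so they were kept as 1 group. In the comparisons with later germ cells, cell stage, genotype, tamoxifen and source cannot be told apart.

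Retinoic acid is made from vitamin A: RDH10 oxidizes retinol to retinaldehyde and ALDH1A2 turns this into retinoic acid. The acid binds receptors of the RAR family, which pair with RXR partners on DNA and switch target genes on, and CYP26 enzymes break it down. In the testis a retinoic acid signal drives undifferentiated spermatogonia into differentiation, when KIT appears, and acts again at the start of meiosis. STRA8, a transcription regulator named after its stimulation by retinoic acid, is induced at both steps. Rarb and Cyp26a1 are retinoic acid targets in many cell types.

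RAR and RXR pairs bind direct repeats of a hexamer. A direct repeat was searched as 2 of 8 hexamers in the same orientation (AGGTCA or GGGTCA or AGTTCA or GGTTCA or AGGTGA or GGGTGA or AGTTGA or GGTTGA), with 1, 2 or 5 bases of any kind between them, on both strands. The windows were the RefSeq promoter sequences of GRCm38.p6, from 250 bases before to 50 bases after a start. The 14 windows of 9 members held a direct repeat at 3 genes, Stra8, Rarb and Cyp26a1, and Rdh10 had no window in the table. These 3 windows are shown on the strand of the gene, 5′ to 3′, because they join the receptors to known targets among the members, with the repeat in capitals:
Stra8, chr6:34920698-34920997, plus strand: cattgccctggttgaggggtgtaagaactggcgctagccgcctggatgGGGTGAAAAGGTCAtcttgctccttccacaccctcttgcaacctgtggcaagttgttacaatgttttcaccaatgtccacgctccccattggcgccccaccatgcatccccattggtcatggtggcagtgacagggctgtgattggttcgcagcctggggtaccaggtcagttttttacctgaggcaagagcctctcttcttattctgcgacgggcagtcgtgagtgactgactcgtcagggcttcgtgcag
Rarb, chr14:16575427-16575726, minus strand: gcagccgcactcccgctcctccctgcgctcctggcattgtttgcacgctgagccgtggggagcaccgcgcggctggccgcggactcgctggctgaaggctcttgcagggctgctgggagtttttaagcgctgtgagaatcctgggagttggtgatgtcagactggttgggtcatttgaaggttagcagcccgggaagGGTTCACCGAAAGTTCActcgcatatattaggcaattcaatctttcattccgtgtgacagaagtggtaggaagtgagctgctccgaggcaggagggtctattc
Cyp26a1, chr19:37697558-37697857, plus strand: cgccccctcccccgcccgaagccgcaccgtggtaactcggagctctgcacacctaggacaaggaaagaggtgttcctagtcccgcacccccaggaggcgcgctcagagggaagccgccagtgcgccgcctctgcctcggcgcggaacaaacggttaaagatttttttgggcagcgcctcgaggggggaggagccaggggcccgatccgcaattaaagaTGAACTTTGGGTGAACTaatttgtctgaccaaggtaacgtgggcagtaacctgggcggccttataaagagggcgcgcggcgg
The annotated start is position 0. The Stra8 repeat had 2 bases between its hexamers and stood at -202 to -189. The Rarb repeat had 5 bases between them at -53 to -37, and the Cyp26a1 repeat had 5 bases at -32 to -16, read on the strand opposite to the gene. Among all 32851 promoter windows, 0.609% held such a repeat with 1 base between the hexamers, 0.472% with 2 and 0.323% with 5, and 1.39% held any of them. The single hexamer AGGTCA, part of the Stra8 repeat and found again at -38 to -33 of that window, was in 16.3% of all windows. A peak covered the whole Stra8 window and another the whole Rarb window, whereas no peak overlapped the Cyp26a1 window. A match is a description of the letters and says nothing about receptor binding in these cells.

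Libraries held between 922085 and 3358377 counts in peaks. Values are CPM, counts scaled to library size, with the TMM correction for library composition. A count of 0 allows up to 3 counts, which is 1.04 to 3.11 CPM depending on the library and covers counting error only. Since CPM depends on the width of a peak, levels are compared between libraries at 1 peak and not between peaks. Marker genes followed the labels in part. The 7 markers of differentiating spermatogonia, which include Stra8 and Kit, summed to 287 to 315 CPM in deleted and 284 to 342 CPM in control KIT-positive cells, against 192 to 258 CPM in deleted and 189 to 210 CPM in control MCAM-high cells. Markers of undifferentiated spermatogonia, all 12 with a peak, overlapped between these populations in control mice. In deleted mice every KIT-positive library lay above every MCAM-high library, against the direction of the labels. These 12 markers summed to 372 to 451 CPM in deleted and 302 to 475 CPM in control KIT-positive cells. In MCAM-high cells they summed to 318 to 363 CPM in deleted and 367 to 416 CPM in control libraries. Spermatid markers, with a peak for 7 of 8 genes, summed to 283 to 355 CPM in later germ cells and to 29.1 to 36.1 CPM in control KIT-positive cells. Spermatocyte markers, all 8 with a peak, summed to 356 to 477 CPM in later germ cells and to 190 to 220 CPM in control KIT-positive cells. These sums do not assign the pooled later group to a single stage. The peak over the annotated start of Tert (chr13:73626569-73627516) differed by -0.28 ± 0.20 (log2, deleted minus control, mean of the 3 populations, SE), with an edgeR adjusted p of 0.976. Which stretch of Tert was removed is not given in the labels, and this peak does not check the deletion.

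The peak over the Stra8 start (chr6:34920661-34921461, centre at +113) was more open in KIT-positive cells of both genotypes than in MCAM-high cells, and least open in later germ cells. In MCAM-high cells it held 16.9, 5.14 and 14.7 CPM in deleted and 14.7, 16.4 and 21.5 CPM in control libraries, and in MCAM-medium cells 20.5, 19.4 and 23.9 CPM in deleted and 22.01 and 14.1 CPM in control libraries. In KIT-positive cells it held 29.8, 62.3 and 17.8 CPM in deleted and 48.7, 20.8 and 46.8 CPM in control libraries, and in later germ cells 6.25, 5.57, 4.43, 7.79 and 3.84 CPM. Each KIT-positive library of a genotype but 1 stood above every MCAM-high library of that genotype: control replicate 2, at 20.8 CPM, lay just under the highest control MCAM-high library. The later germ cells lay below all control spermatogonial libraries, and 1 deleted MCAM-high library, at 5.14 CPM, fell among them. Group means ± SD were 12.3 ± 6.26 CPM in deleted and 17.5 ± 3.57 CPM in control MCAM-high cells, 21.2 ± 2.33 and 18.1 ± 5.56 CPM in deleted and control MCAM-medium cells, 36.7 ± 23.01 and 38.7 ± 15.6 CPM in deleted and control KIT-positive cells, and 5.58 ± 1.56 CPM in later germ cells. In the order of these means, each pair of neighbouring groups overlapped in range.

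In deleted mice the Stra8 start peak was higher in KIT-positive than in MCAM-high cells by 1.59 ± 0.39 (log2 ± SE, edgeR quasi-likelihood test, adjusted p = 0.00420 over all tested peaks). In control mice the same difference was 1.18 ± 0.35 (adjusted p = 0.0171, edgeR). Against MCAM-medium cells it was 0.76 ± 0.36 in deleted mice (adjusted p = 0.215) and 1.12 ± 0.40 in control mice (adjusted p = 0.0684), and edgeR called neither. Both calls against MCAM-high cells were lost when 1 of several libraries was left out. In deleted mice the adjusted p was 0.0675 without MCAM-high replicate 2 (difference 1.18) and 0.129 without KIT-positive replicate 2 (1.01). In control mice it was 0.0501 and 0.0636 without MCAM-high replicate 1 or 2, and 0.0841 and 0.0965 without KIT-positive replicate 1 or 3. Later germ cells were lower than control KIT-positive cells by 7.05 times (-2.82 ± 0.34, log2, adjusted p = 7.41e-10) and lower than control MCAM-high cells (-1.63 ± 0.35, adjusted p = 7.65e-05), both by edgeR. In bulk samples such as these, fewer cells with an open site and less signal per cell cannot be told apart. The labels do not say that replicates came from separate mice, so the p-values reflect library-to-library spread that may be technical.

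A second Stra8 peak, inside the gene (chr6:34921867-34922286, centre at +1128), was highest on average in KIT-positive cells of both genotypes. It held 12.7, 10.3 and 5.43 CPM in deleted and 3.49, 7.34 and 6.83 CPM in control MCAM-high cells, and 4.97, 2.08 and 5.22 CPM in deleted and 7.80 and 2.18 CPM in control MCAM-medium cells. In KIT-positive cells it held 25.3, 31.8 and 10.9 CPM in deleted and 18.7, 21.8 and 42.1 CPM in control libraries, and in later germ cells 8.68, 3.10, 5.17, 3.89 and 10.4 CPM. In control mice the KIT-positive libraries lay above every MCAM-high and MCAM-medium library. In deleted mice they lay above every MCAM-medium library, while 1 KIT-positive library, at 10.9 CPM, lay within the MCAM-high range. The difference from MCAM-medium cells was 2.42 ± 0.52 in deleted mice (adjusted p = 0.00199) and 2.46 ± 0.55 in control mice (adjusted p = 0.00276, edgeR). The difference from MCAM-high cells was 1.23 ± 0.47 in deleted mice, where edgeR gave an adjusted p of 0.0692, and 2.27 ± 0.46 in control mice (adjusted p = 0.000500). In deleted mice the difference from MCAM-high cells passed without deleted KIT-positive replicate 3 (1.57, adjusted p = 0.0302) and in a fit of the compared groups alone (1.12, adjusted p = 0.0458), and the control call against MCAM-medium cells was lost without control MCAM-medium replicate 2 (1.88, adjusted p = 0.0802). Later germ cells were lower than control KIT-positive cells at this peak too (-2.12 ± 0.41, adjusted p = 1.91e-05, edgeR).

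Upstream of the annotated Stra8 start, a small peak (chr6:34920087-34920303, centre at -753) overlapped the edge of the gene body. It held 8.14, 9.35 and 13.95 CPM in deleted and 12.7, 2.08 and 4.74 CPM in control KIT-positive cells. In MCAM-high cells it held 2.53, 0.642 and 4.65 CPM in deleted and 1.75, 0.863 and 1.05 CPM in control libraries. The KIT-positive libraries of each genotype lay above its MCAM-high libraries, by a narrow margin in control mice and at few counts. MCAM-medium cells held 0.621 to 5.54 CPM in deleted and 0.917 to 3.26 CPM in control libraries, and later germ cells 0 to 3.25 CPM. The difference was 1.99 ± 0.80 in deleted mice (adjusted p = 0.0898, edgeR) and 2.33 ± 0.83 in control mice (adjusted p = 0.0461), and the control call was lost in 9 of 13 alternative settings. Without control KIT-positive replicate 1 the control difference was 1.45 (adjusted p = 0.340). This small peak passed the filter on low counts only in the fit of the spermatogonial libraries. KIT-positive cells were its highest group there, so its being tested rests on the cells where it was called higher. A peak downstream of the gene (chr6:34941404-34941996, centre at +20752) held 0.347, 1.86, 0, 1.95 and 0 CPM in later germ cells, against 16.5, 10.4 and 10.7 CPM in control KIT-positive cells. The groups did not overlap. It was lower in later germ cells than in control KIT-positive cells by 15.3 times (-3.93 ± 0.66, adjusted p = 1.38e-06, edgeR). The peak at +6420 (chr6:34927181-34927555) went the other way against MCAM-high cells: it held 9.72, 5.57, 6.65, 6.49 and 5.48 CPM in later germ cells, against 1.75, 3.45 and 1.05 CPM in control MCAM-high cells (1.67 ± 0.63, adjusted p = 0.0192, edgeR). That call was lost in 3 of 14 alternative settings. The peak at +6420 passed the filter on low counts only in the fit that holds the later libraries. Its being tested thus rests on their higher values.

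**Figure D1:**
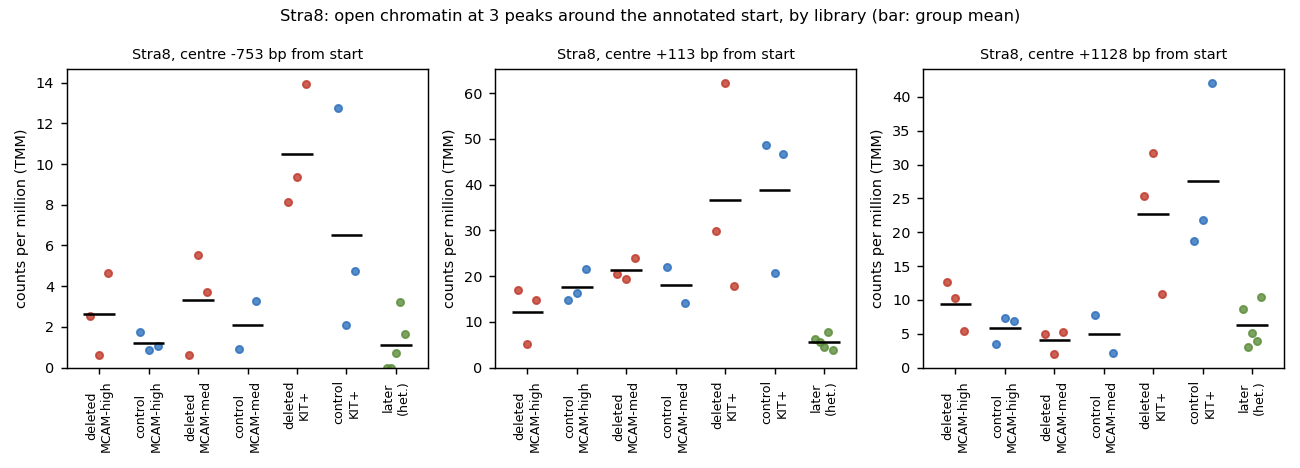
TMM-scaled CPM (y axis) at 3 Stra8 peaks in every library, grouped by population with deleted (red) left of control (blue) and later germ cells in green; bars are group means and panels give the distance of the peak centre from the annotated start. The start peak averages 36.7 CPM in deleted and 38.7 CPM in control KIT-positive cells and 5.58 CPM in later germ cells.

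Across all members, 36 of the 52 peaks had counts high enough to be tested among the spermatogonial libraries. In deleted mice 4 of the 36 (11.1%) passed in KIT-positive against MCAM-high cells, 3 higher and 1 lower, against 13.7% of all 57289 tested peaks (9.39% higher and 4.35% lower). In control mice 6 of the 36 (16.7%) passed, 4 higher and 2 lower, against 15.8% of all tested peaks (9.64% higher and 6.11% lower). The median member difference was 0.33 in deleted and 0.20 in control mice (log2), against -0.05 over all tested peaks in each genotype. Against MCAM-medium cells, 2 member peaks (5.56%) passed in deleted mice, both higher, with 6.87% of all peaks passing (4.59% higher and 2.27% lower). In control mice 3 (8.33%) passed, 2 higher and 1 lower, with 9.32% of all peaks passing (5.70% higher and 3.62% lower). These shares were near those of all peaks, and nothing about the list as a whole is read from them. Sertoli cell markers, which could enter a sort with other cells, summed to 133 to 175 CPM in deleted and 120 to 146 CPM in control KIT-positive cells, against 140 to 181 CPM in deleted and 160 to 171 CPM in control MCAM-high cells, and their part in the member differences was not tested. The comparison shares no library between genotypes: 3 member peaks were called in both, 7 in either, and all 7 had the same sign in both genotypes, as did 27 of the 36 tested. Of all 57289 tested peaks 7.94% were called in both genotypes and 21.6% in either, 96.0% of those called in either had the same sign in both, and so did 75.02% of all tested, so nothing about the members is read from these counts. Scaling to total counts instead of TMM turned the split over all peaks round, to 3576 higher and 4154 lower in deleted mice, against 5382 and 2492 with TMM, and to 4067 higher and 5005 lower in control mice, against 5522 and 3502. The median of all peaks was then -0.28 in deleted and -0.22 in control mice.

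**Figure D2:**
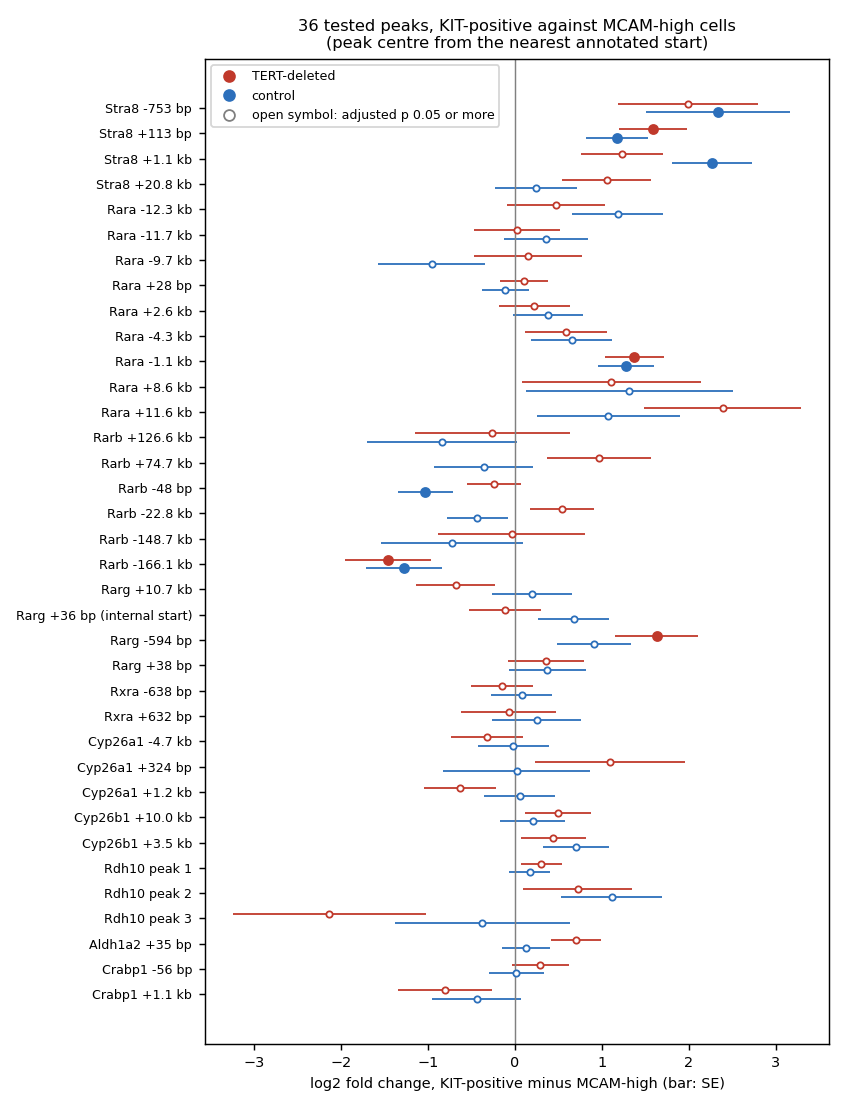
Log2 difference between KIT-positive and MCAM-high cells (x axis, bars are SE) at the 36 tested member peaks, with deleted mice in red and control mice in blue; filled points passed an edgeR adjusted p of 0.05. The Stra8 start peak and the internal Rara peak lie to the right and filled in both genotypes, at 1.59 and 1.37 in deleted and 1.18 and 1.28 in control mice.

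Between the undifferentiated populations no member peak passed. MCAM-medium minus MCAM-high gave 0 of 36 in deleted mice, where 0.0140% of all peaks passed, and 0 of 36 in control mice, where 0 of all peaks (0%) passed, both by edgeR. At an unadjusted p below 0.05 the members numbered 2 in deleted and 0 in control mice, and DESeq2 called 0 in both.

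Rara encodes the receptor RARα, which acts in germ cells and in Sertoli cells. The peak over its start (chr11:98937266-98938225) had no called difference among spermatogonia, and the values were 43.1, 32.1 and 45.7 CPM in deleted and 53.1, 29.8 and 40.99 CPM in control MCAM-high cells, 66.4, 45.03 and 45.5 CPM in deleted and 48.2 and 34.8 CPM in control MCAM-medium cells, 51.5, 40.5 and 39.5 CPM in deleted and 41.2, 24.9 and 46.8 CPM in control KIT-positive cells, and 34.7, 32.2, 22.9, 19.5 and 28.5 CPM in later germ cells. The populations overlapped, and the KIT-positive differences from MCAM-high cells, 0.10 ± 0.28 in deleted and -0.11 ± 0.27 in control mice, did not pass (edgeR adjusted p = 0.849 and 0.827). An internal peak (chr11:98963404-98964143), centred at -1098 from a downstream start, separated the same libraries completely. There the values were 23.6, 15.4 and 8.53 CPM in deleted and 23.8, 9.93 and 16.3 CPM in control MCAM-high cells, 16.8, 19.4 and 15.7 CPM in deleted and 19.7 and 10.9 CPM in control MCAM-medium cells, 42.5, 42.99 and 39.5 CPM in deleted and 34.4, 42.6 and 44.4 CPM in control KIT-positive cells, and 30.9, 20.4, 28.1, 37.6 and 18.1 CPM in later germ cells. Every KIT-positive library stood above every MCAM-high and MCAM-medium library, without overlap in either genotype.

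At this internal Rara peak KIT-positive cells exceeded MCAM-high cells by 1.37 ± 0.34 in deleted mice (adjusted p = 0.00474) and by 1.28 ± 0.32 in control mice (adjusted p = 0.00459, edgeR). They exceeded MCAM-medium cells by 1.24 ± 0.34 in deleted mice (adjusted p = 0.0156) and by 1.41 ± 0.38 in control mice (adjusted p = 0.0122). Of these calls, the control ones were lost without control MCAM-high replicate 2 (adjusted p = 0.0574) or control MCAM-medium replicate 2 (0.179), and the deleted ones without deleted MCAM-high replicate 3 (0.0571) or any of deleted MCAM-medium replicates 1 and 3 and KIT-positive replicate 1 (0.0707, 0.0594 and 0.0584). The difference of later germ cells from control KIT-positive cells, -0.61 ± 0.29, had an adjusted p of 0.0700 (edgeR).

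Another pair of internal Rara peaks was more open in later germ cells. The peak at +3350 (chr11:98942911-98943212) was among them, and the values were 6.75, 1.28 and 3.10 CPM in deleted and 0.349, 1.29 and 1.05 CPM in control MCAM-high cells, 2.48, 0 and 0 CPM in deleted and 4.59 and 2.18 CPM in control MCAM-medium cells, 6.33, 0.623 and 2.33 CPM in deleted and 3.74, 1.04 and 0 CPM in control KIT-positive cells, and 21.9, 19.8, 19.2, 22.1 and 15.9 CPM in later germ cells. The later libraries lay above every spermatogonial one, and the difference from control KIT-positive cells was 3.62 ± 0.61 (adjusted p = 1.61e-06, edgeR). This peak passed the filter on low counts only in the fit that holds the later libraries, so its being tested rests on their high values. The neighbouring peak at +2568 (chr11:98941916-98942641) held 25.96 to 58.2 CPM in later germ cells and 14.5 to 22.5 CPM in control KIT-positive cells (1.26 ± 0.32, adjusted p = 0.000785). It overlaps the lncRNA gene Gm46294, as does the Rara start peak, so the signal cannot be assigned to 1 of the genes.

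Rarb encodes RARβ, itself a retinoic acid target. Its start peak (chr14:16575041-16576007, centre at -48), which covers the window printed above, was lower in control KIT-positive cells than in either undifferentiated population. It held 45.6, 17.98 and 34.1 CPM in deleted and 31.1, 30.6 and 40.5 CPM in control MCAM-high cells, 21.1, 35.3 and 26.8 CPM in deleted and 39.9 and 34.8 CPM in control MCAM-medium cells, 27.1, 27.4 and 28.7 CPM in deleted and 20.2, 16.6 and 13.04 CPM in control KIT-positive cells, and 3.47, 2.48, 4.43, 2.60 and 7.12 CPM in later germ cells. The control KIT-positive libraries lay below every control MCAM-high and MCAM-medium library and below the deleted KIT-positive libraries, and the later libraries lay below all others. In control mice the KIT-positive difference was -1.03 ± 0.32 from MCAM-high cells (adjusted p = 0.0215) and -1.17 ± 0.35 from MCAM-medium cells (adjusted p = 0.0248, edgeR). In deleted mice the difference from MCAM-high cells was -0.24 ± 0.31 (adjusted p = 0.659). The test of the difference between the genotypes, 0.79 ± 0.45, had an adjusted p of 0.996, so the KIT effect was not shown to differ with TERT deletion. In KIT-positive cells alone, deleted minus control was 0.71 ± 0.33 (adjusted p = 1, edgeR). Without control MCAM-high replicate 3 or control KIT-positive replicate 3 the control difference from MCAM-high cells was -0.90 and -0.84 (adjusted p = 0.0920 and 0.132). The call against MCAM-medium cells was lost in 5 of 13 alternative settings.

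An internal Rarb peak far from the start (chr14:16741273-16741927) was also lower in KIT-positive cells. It held 7.23, 5.61 and 2.33 CPM in deleted and 8.99, 8.30 and 7.11 CPM in control KIT-positive cells, against 12.7, 17.98 and 10.1 CPM in deleted and 15.7, 22.9 and 21.02 CPM in control MCAM-high cells. MCAM-medium cells held 4.47 to 10.6 CPM in deleted and 9.79 to 23.8 CPM in control libraries, and later germ cells 0.739 to 1.95 CPM. KIT-positive and MCAM-high cells did not overlap in either genotype, and the difference was -1.46 ± 0.50 in deleted mice (adjusted p = 0.0400) and -1.27 ± 0.44 in control mice (adjusted p = 0.0404, edgeR). Each of these calls was lost in 8 of 14 alternative settings. The Rarb peak that changed most clearly in later germ cells (chr14:16597872-16598598) was open in spermatogonia, and the values were 21.95, 7.71 and 24.03 CPM in deleted and 24.1, 34.96 and 30.5 CPM in control MCAM-high cells, 27.9, 21.5 and 18.6 CPM in deleted and 29.8 and 22.3 CPM in control MCAM-medium cells, 40.7, 25.5 and 12.4 CPM in deleted and 25.5, 20.8 and 19.6 CPM in control KIT-positive cells, and 2.43, 3.72, 1.48, 1.95 and 0.548 CPM in later germ cells. Later germ cells lay below every other library and were 10.6 times lower than control KIT-positive cells (-3.40 ± 0.41, adjusted p = 7.82e-10, edgeR). Near the 5′ edge of the gene body, far upstream of the annotated start (chr14:17078110-17078857, centre at -503008), 1 peak was instead higher in later germ cells. It held 12.1 to 19.9 CPM in later germ cells, against 1.19 to 6.23 CPM in control KIT-positive cells (2.55 ± 0.60, adjusted p = 0.000317, edgeR). That peak passed the filter on low counts only in the fit that holds the later libraries, so its being tested rests on their high values.

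Rarg encodes RARγ, the receptor linked to the differentiation of spermatogonia, and it had peaks at an internal start and at the upstream start. The peak at the internal start (chr15:102246234-102246693) held 27.02, 7.06 and 18.6 CPM in deleted and 10.5, 9.06 and 11.6 CPM in control MCAM-high cells, 9.94, 18.7 and 18.6 CPM in deleted and 9.17 and 11.4 CPM in control MCAM-medium cells, and 14.5, 18.7 and 15.5 CPM in deleted and 17.2, 17.6 and 14.8 CPM in control KIT-positive cells. Later germ cells held 1.04, 3.72, 2.95, 4.54 and 4.38 CPM, below all spermatogonial libraries (-2.38 ± 0.46 from control KIT-positive cells, adjusted p = 1.72e-05, edgeR). The control KIT-positive libraries lay above the control MCAM-high ones, whereas the deleted populations overlapped, and edgeR called neither difference (-0.11 ± 0.41 in deleted and 0.68 ± 0.41 in control mice, adjusted p = 0.889 and 0.271). The peak at the upstream start (chr15:102257097-102257871) was open in every group, and the values were 16.9, 11.6 and 11.6 CPM in deleted and 11.9, 4.32 and 12.6 CPM in control MCAM-high cells, 14.3, 9.70 and 16.4 CPM in deleted and 14.7 and 8.16 CPM in control MCAM-medium cells, 10.8, 22.4 and 18.6 CPM in deleted and 10.5, 18.7 and 8.89 CPM in control KIT-positive cells, and 8.33, 7.43, 5.91, 16.9 and 15.9 CPM in later germ cells. All groups overlapped there. Just upstream of the internal start, a peak centred at -594 (chr15:102246859-102247330) held 13.6, 24.3 and 26.4 CPM in deleted and 20.97, 12.5 and 26.1 CPM in control KIT-positive cells, against 6.75, 4.49 and 9.30 CPM in deleted and 15.4, 6.47 and 9.99 CPM in control MCAM-high cells. MCAM-medium cells held 4.97 to 20.8 CPM in deleted and 11.5 to 18.5 CPM in control libraries, and later germ cells 2.19 to 10.1 CPM. Its KIT-positive libraries lay above the MCAM-high ones in deleted mice and overlapped with them in control mice, and the difference was 1.63 ± 0.47 in deleted mice (adjusted p = 0.0154) and 0.91 ± 0.42 in control mice (adjusted p = 0.138, edgeR). The deleted call was lost without deleted MCAM-high replicate 2 (adjusted p = 0.1005) or deleted KIT-positive replicate 3 (0.0639).

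Rxra encodes RXRα, a partner of the RAR proteins. The peak nearest its first start (chr2:27676128-27676999) held 25.3, 23.1 and 13.95 CPM in deleted and 12.6, 20.7 and 18.4 CPM in control MCAM-high cells, 13.7, 22.2 and 14.9 CPM in deleted and 30.3 and 16.9 CPM in control MCAM-medium cells, 19.9, 17.4 and 20.2 CPM in deleted and 20.2, 15.6 and 17.8 CPM in control KIT-positive cells, and 4.86, 4.95, 5.91, 5.84 and 4.93 CPM in later germ cells. The spermatogonial groups overlapped, and the later libraries lay below all of them (-1.78 ± 0.38 from control KIT-positive cells, adjusted p = 9.59e-05, edgeR).

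The degrading enzymes showed no called difference between spermatogonial populations. The small peak nearest the Cyp26a1 start (chr19:37698032-37698232, centre at +324) held 3.38, 3.21 and 1.55 CPM in deleted and 3.15, 3.45 and 3.15 CPM in control MCAM-high cells, 2.48, 2.77 and 8.95 CPM in deleted and 2.75 and 5.44 CPM in control MCAM-medium cells, 0.904, 6.85 and 10.1 CPM in deleted and 8.24, 1.04 and 0.593 CPM in control KIT-positive cells, and 1.74, 3.72, 1.48, 1.95 and 2.74 CPM in later germ cells. Many of these values were near the floor and the groups overlapped. Further into the gene (chr19:37698724-37699355) the values were 14.4, 14.8 and 21.7 CPM in deleted and 11.2, 13.4 and 11.04 CPM in control MCAM-high cells, 15.5, 22.9 and 14.2 CPM in deleted and 6.88 and 12.5 CPM in control MCAM-medium cells, 9.04, 16.2 and 7.75 CPM in deleted and 13.5, 13.5 and 10.1 CPM in control KIT-positive cells, and 0.347, 3.72, 5.17, 3.25 and 3.29 CPM in later germ cells. Later germ cells lay below all others there (-2.08 ± 0.51, adjusted p = 0.000517, edgeR). Cyp26b1, the CYP26 enzyme known to keep retinoic acid away from fetal male germ cells, had no peak at its start. Its peak at +3548 (chr6:84589915-84590608) held 13.5, 19.9 and 20.9 CPM in deleted and 11.9, 14.7 and 8.93 CPM in control MCAM-high cells, 26.1, 17.3 and 6.71 CPM in deleted and 12.8 and 19.6 CPM in control MCAM-medium cells, 18.99, 29.3 and 27.1 CPM in deleted and 23.2, 14.5 and 19.6 CPM in control KIT-positive cells, and 3.82, 4.95, 5.91, 5.84 and 4.93 CPM in later germ cells. The later libraries again lay below every spermatogonial library (-1.96 ± 0.40, adjusted p = 3.92e-05), and the second Cyp26b1 peak was lower too (-1.55 ± 0.41, adjusted p = 0.00124, edgeR).

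Of the producing enzymes, Aldh1a2 was more open in later germ cells. Its start peak (chr9:71215045-71216603) held 33.8, 25.7 and 25.6 CPM in deleted and 34.9, 34.5 and 25.8 CPM in control MCAM-high cells, 24.2, 27.02 and 38.8 CPM in deleted and 34.4 and 25.03 CPM in control MCAM-medium cells, 48.8, 51.7 and 40.3 CPM in deleted and 26.96, 29.1 and 46.2 CPM in control KIT-positive cells, and 84.04, 68.7, 70.9, 51.9 and 80.5 CPM in later germ cells. Each later library lay above every spermatogonial library, the closest being a deleted KIT-positive one at 51.7 CPM, and the difference from control KIT-positive cells was 1.02 ± 0.25 (adjusted p = 0.000441, edgeR). The upstream peak (chr9:71214313-71214683, centre at -1291) was near the floor in spermatogonia, and the values were 4.22, 1.28 and 1.55 CPM in deleted and 1.05, 0.863 and 2.63 CPM in control MCAM-high cells, 4.35, 2.08 and 5.97 CPM in deleted and 0.459 and 1.09 CPM in control MCAM-medium cells, 0, 1.25 and 2.33 CPM in deleted and 0, 4.15 and 1.78 CPM in control KIT-positive cells, and 19.8, 15.5, 8.86, 22.7 and 15.3 CPM in later germ cells. Later germ cells did not overlap with any other group (3.14 ± 0.63, adjusted p = 3.32e-05). The upstream peak passed the filter on low counts only in the fit that holds the later libraries, so its being tested rests on their high values. Both Aldh1a2 peaks overlap the neighbouring gene Gm3458, so the signal cannot be assigned to 1 of the genes.

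For Rdh10 the peak at the gene end nearest the neighbouring gene Rpl7 (chr1:16104051-16106433), which overlaps Rpl7, held 78.5, 77.1 and 94.6 CPM in deleted and 52.8, 84.6 and 98.3 CPM in control MCAM-high cells, 58.4, 76.2 and 61.9 CPM in deleted and 97.2 and 54.95 CPM in control MCAM-medium cells, 114, 95.3 and 104 CPM in deleted and 80.1, 70.6 and 110 CPM in control KIT-positive cells, and 90.6, 91.7, 79.03, 94.1 and 111 CPM in later germ cells. The control groups overlapped, whereas the deleted KIT-positive libraries lay above the deleted MCAM-high and MCAM-medium ones (0.31 ± 0.24 from MCAM-high cells, adjusted p = 0.422, edgeR). A narrow peak next to it (chr1:16106512-16106715) was lowest in later germ cells, and the values were 7.60, 5.14 and 1.55 CPM in deleted and 5.24, 5.61 and 3.68 CPM in control MCAM-high cells, 3.73, 3.46 and 0.746 CPM in deleted and 6.42 and 2.18 CPM in control MCAM-medium cells, 6.33, 10.6 and 6.98 CPM in deleted and 13.5, 9.34 and 8.89 CPM in control KIT-positive cells, and 1.39, 1.24, 1.48, 3.89 and 1.10 CPM in later germ cells. Later germ cells lay below all KIT-positive libraries (-2.56 ± 0.59, adjusted p = 0.000264) and overlapped with the undifferentiated ones. Crabp1, a cytoplasmic retinoic acid binding protein, had a start peak (chr9:54764248-54765137) with 18.6, 23.8 and 24.8 CPM in deleted and 21.7, 21.6 and 24.7 CPM in control MCAM-high cells, 28.6, 35.3 and 17.9 CPM in deleted and 18.3 and 23.9 CPM in control MCAM-medium cells, 17.2, 29.3 and 37.2 CPM in deleted and 21.7, 15.6 and 29.6 CPM in control KIT-positive cells, and 9.03, 7.43, 5.91, 18.2 and 12.6 CPM in later germ cells. Later germ cells were lower than control KIT-positive cells, with overlap of 1 library (-1.12 ± 0.34, adjusted p = 0.00498, edgeR). That call was lost without control KIT-positive replicate 3 (-0.91, adjusted p = 0.0611).

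**Figure D3:**
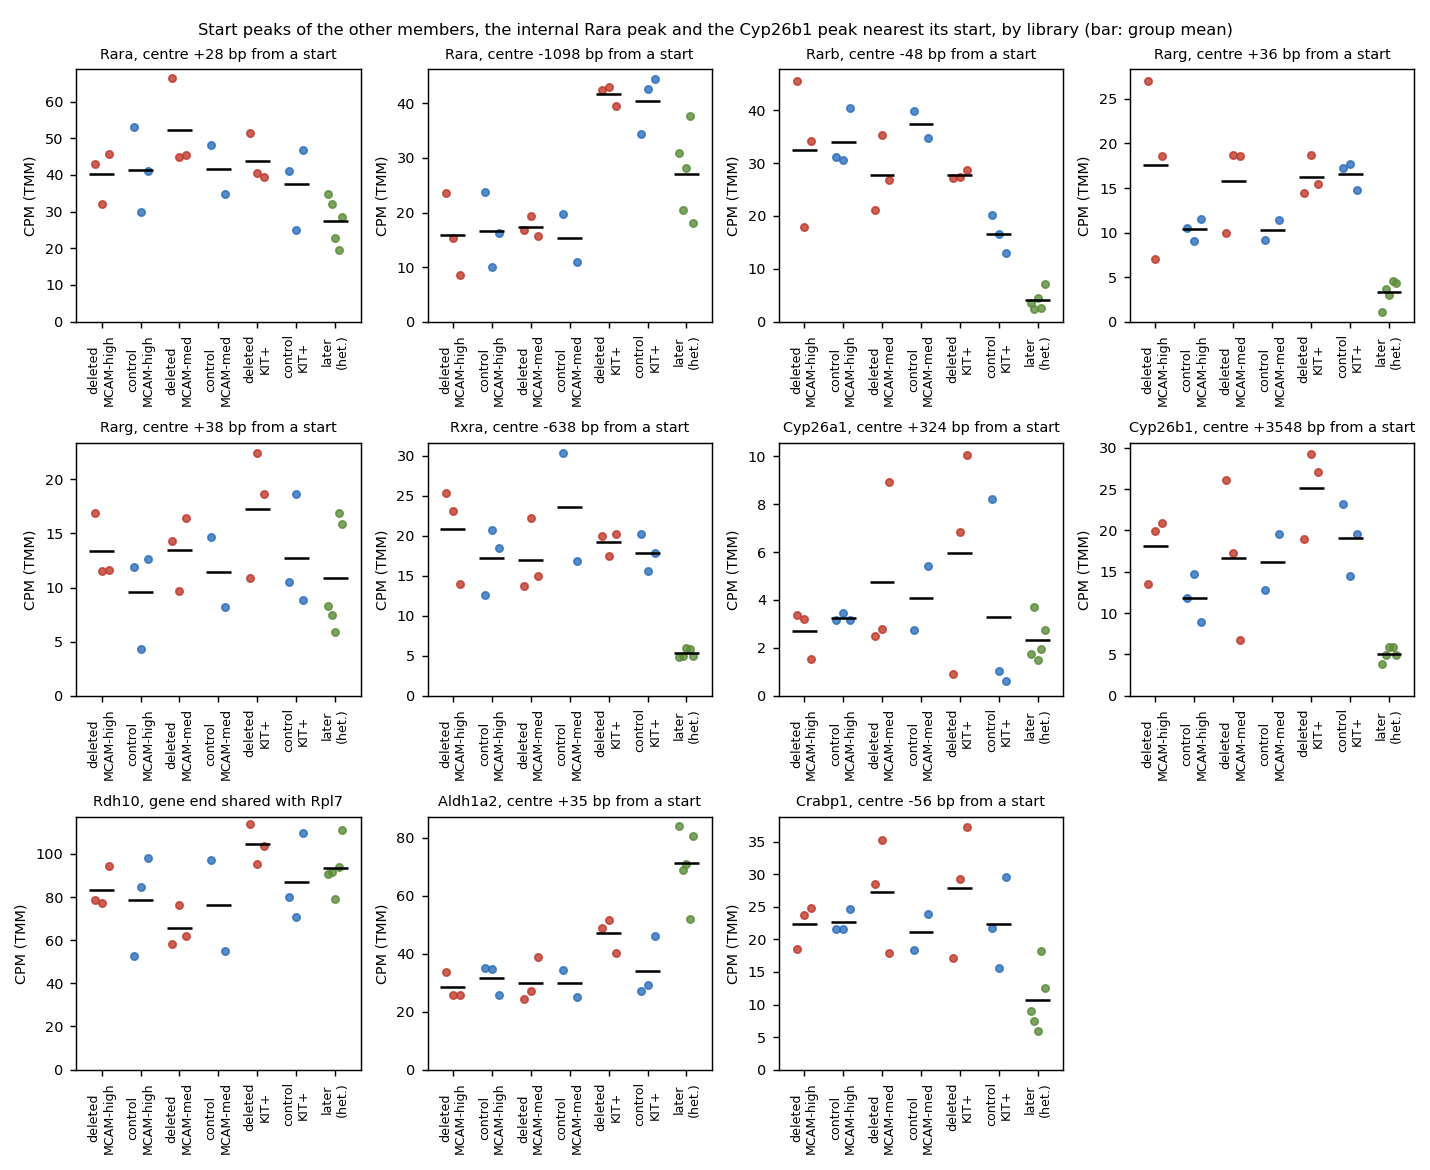
TMM-scaled CPM (y axis) in every library at the start peaks of the other members, the internal Rara peak and the Cyp26b1 peak nearest its start, with deleted libraries in red left of control libraries in blue, and later germ cells in green; bars are group means. At the Rara peak centred at -1098 the KIT-positive libraries sit at 39.5 to 42.99 CPM in deleted and 34.4 to 44.4 CPM in control mice, above every undifferentiated library.

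Later germ cells against control KIT-positive cells were tested at 41 member peaks: 25 of 41 (61.0%) passed, 7 higher and 18 lower, against 52.0% of all 73134 tested peaks (29.2% higher and 22.8% lower). Against control MCAM-high cells 25 of 41 (61.0%) passed, 9 higher and 16 lower, against 58.4% of all tested peaks (33.5% higher and 24.9% lower). Both comparisons use the same later libraries. The median member difference was -0.69 from KIT-positive and -0.58 from MCAM-high cells, against 0.12 and 0.01 over all peaks, and all 10 genes had at least 1 called peak in each. The 7 higher peaks against KIT-positive cells were 4 at Rara, 1 at Rarb and 2 at Aldh1a2. Among them, the Rara peak at +3350, the Rarb peak and the upstream Aldh1a2 peak passed the filter on low counts only in this fit. Later germ cells were their highest group, so their being tested rests on the cells where they were called higher. The 18 lower peaks were 3 at Stra8, 2 at Rara, 4 at Rarb, 2 at Rarg, 1 at Rxra, 2 at Cyp26a1, 2 at Cyp26b1, 1 at Rdh10 and 1 at Crabp1. Of these calls, 4 were lost without control KIT-positive replicate 1: a Rara peak at -4348 (0.51, edgeR adjusted p = 0.269), a Rara peak at +8647 (1.31, 0.184), a Rarb peak at +74660 (-0.58, 0.587) and a Cyp26a1 peak at -4676 (-1.21, 0.0656), which also overlaps Gm32342 and Cyp26c1 and cannot be assigned to 1 of the genes. The first of these was also lost without later replicate 3 (0.74, 0.0948), and the Rara peak at +8647 was lost in 7 of 14 alternative settings. DESeq2 size factors put the median of all peaks at 0.31 in this comparison. Somatic markers were also lower in later germ cells. Sertoli cell markers, with a peak for 8 of 10 genes and none for Gata4 and Rhox5, summed to 91.5 to 104 CPM in later germ cells and 120 to 146 CPM in control KIT-positive cells. Leydig cell markers, with a peak for 2 of 7 genes, summed to 13.01 to 19.8 CPM and 31.1 to 50.9 CPM in the same groups, and peritubular and endothelial markers, with a peak for 3 of 7, to 19.2 to 27.9 CPM and 52.9 to 77.9 CPM. Immune markers, with a peak for 3 of 6 genes, summed to 5.91 to 23.6 CPM in later germ cells and 26.1 to 36.3 CPM in control KIT-positive cells. Their part in the lower member peaks was not tested.

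**Figure D4:**
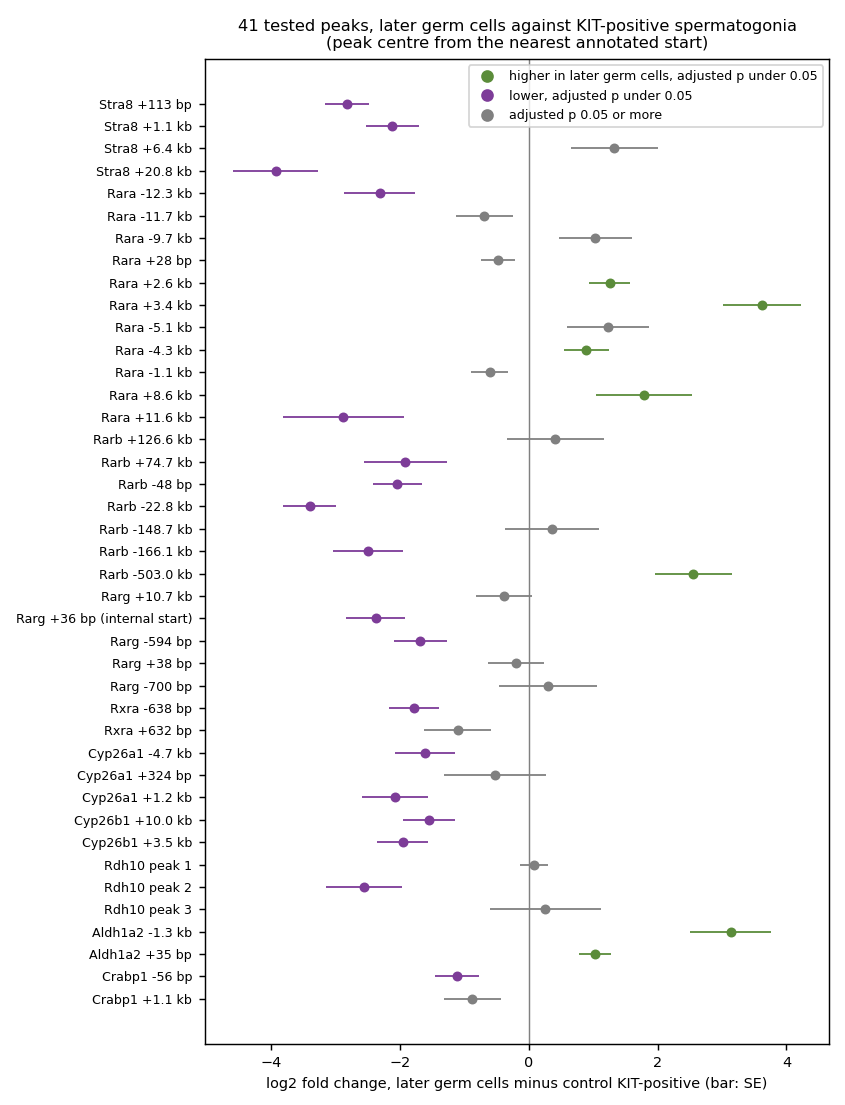
Log2 difference between later germ cells and control KIT-positive cells (x axis, bars are SE) at the 41 tested member peaks. Green points were higher and purple points lower in later germ cells at an edgeR adjusted p under 0.05, and grey points did not pass. The points run from -3.93 at the peak downstream of Stra8 to 3.62 at an internal Rara peak, with 18 purple points below 0 and 7 green points above.

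TERT deletion changed no member peak past the threshold. Deleted minus control gave 0 of 36 in MCAM-high cells, where 0.0489% of all tested peaks passed, 0 of 36 in MCAM-medium cells (0.00873% of all) and 0 of 36 in KIT-positive cells (0.00349% of all), by edgeR. The mean effect over the 3 populations gave 0 of 36 (0.124% of all), and the difference of the deletion effect between KIT-positive and MCAM-high cells gave 0 of 36 (0% of all). At an unadjusted p below 0.05 there was 1 member peak in each of the first 4 comparisons and 0 in the last, and DESeq2 called 0 in all 5. At the Stra8 start the deletion effect was -0.54 ± 0.40 in MCAM-high cells, 0.23 ± 0.41 in MCAM-medium cells and -0.13 ± 0.35 in KIT-positive cells (log2 ± SE), and -0.15 ± 0.22 in the mean, with edgeR adjusted p-values of 0.967, 1, 1 and 0.997. The signs differed between populations and each effect was within 1.5 times its SE. The smallest adjusted p of a member in the mean effect, 0.647, belonged to the internal Rarb peak at chr14:16741273-16741927, which was lower in deleted cells by 1.67 times (-0.74 ± 0.27). A p-value that misses the threshold does not show that deleted and control cells were alike at these peaks.

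Against MCAM-high cells, other genes of the pathway that passed with KIT were Rxrb, Ncor1 and Ncoa3 in control mice and Ncor1 in deleted mice. Of 29 further genes of retinoid metabolism, transport and receptor function, 22 had a peak and 21 were tested. For 16 of the 22 the peak was at the start, and for 6, which include Ncoa3 and Fabp5, it lay within 1 kb of a gene end that may be the far one. In deleted mice 1 of the 21 was higher and 0 lower in KIT-positive than in MCAM-high cells, against 9.39% higher and 4.35% lower of all tested peaks (edgeR). In control mice 3 were higher and 0 lower, against 9.64% and 6.11% of all tested peaks. The list median was -0.03 in deleted and 0.03 in control mice, against -0.05 over all tested peaks in each. The control calls were Rxrb, a second RXR gene (47.6 ± 25.7 CPM in KIT-positive and 17.2 ± 5.27 CPM in MCAM-high cells, 1.5 ± 0.34, adjusted p = 0.00165), the corepressor gene Ncor1 (0.94 ± 0.32, adjusted p = 0.0397) and the coactivator gene Ncoa3 (0.85 ± 0.29, adjusted p = 0.0400). The deleted call was Ncor1 (1.03 ± 0.33, adjusted p = 0.0310). In later germ cells against control KIT-positive cells 2 of 20 tested were higher and 8 lower, against 29.2% and 22.8% of all tested peaks, with a median of -0.30 and of 0.12 over all peaks. Among the largest were Rdh11, a retinal reductase, at 2.12 ± 0.37 (adjusted p = 3.89e-06), the fatty acid and retinoic acid carrier Fabp5 at -1.90 ± 0.35 (9.93e-06), and Lrat, which stores retinol as esters, at 1.58 ± 0.24 (2.26e-07, all edgeR).

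Several partners of STRA8 and germ cell genes linked to retinoic acid were more open in KIT-positive cells. All 12 had a tested peak, for 8 at the start and for Sall4, Dmrt1, Zbtb16 and Ythdc2 within 1 kb of a gene end that may be the far one. In deleted mice 7 of the 12 were higher and 0 lower than in MCAM-high cells, against 9.39% and 4.35% of all tested peaks, and in control mice 6 were higher and 1 lower, against 9.64% and 6.11%. The medians were 0.94 in deleted and 0.63 in control mice, against -0.05 over all tested peaks (edgeR). Against MCAM-medium cells 6 were higher and 0 lower in each genotype, where 4.59% of all tested peaks were higher in deleted and 5.70% in control mice. These genes were chosen with earlier results known, and no test was made of the list. Peaks of this list and of the other pathway genes lie at starts or gene ends, whereas the tested peaks as a whole lie anywhere. The shares thus compare unlike sets, and shares among start peaks alone are not given. Meioc, a meiotic regulator of germ cell RNA, held 77.9 ± 6.03 CPM in deleted and 89.4 ± 43.7 CPM in control KIT-positive cells, against 25.8 ± 6.51 CPM in deleted and 27.01 ± 11.8 CPM in control MCAM-high cells (mean ± SD, n = 3 each). The differences were 1.57 ± 0.31 in deleted and 1.73 ± 0.29 in control mice (adjusted p = 0.000333 and 3.57e-05, edgeR). Meiosin, the partner of STRA8 at meiotic genes, held 82.6 ± 4.92 CPM in deleted and 84.6 ± 22.4 CPM in control KIT-positive cells, against 38.1 ± 1.49 CPM in deleted and 36.2 ± 5.25 CPM in control MCAM-high cells, with differences of 1.09 ± 0.24 and 1.24 ± 0.24 (0.00168 and 0.000228). Dmrt1, a regulator of the choice between mitosis and meiosis, differed by 1.20 ± 0.26 in deleted and 1.39 ± 0.25 in control mice (0.00124 and 0.000102). Nanos2, an RNA-binding repressor of differentiation, was lower in control KIT-positive cells (-1.91 ± 0.67, adjusted p = 0.0413) and had -1.99 ± 0.73 in deleted mice (adjusted p = 0.0581). Kit, also on this list, is the gene of the sorted protein. Later germ cells had 0 of the 12 higher and 9 lower than control KIT-positive cells, against 29.2% and 22.8% of all tested peaks. The median was -1.19, and the lower peaks were led by Sall4 (-2.95), Nanos2 (-2.93), Dmrt1 (-2.82) and Zbtb16 (-2.32). No gene of either list passed in a deletion comparison (edgeR).

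**Figure D5:**
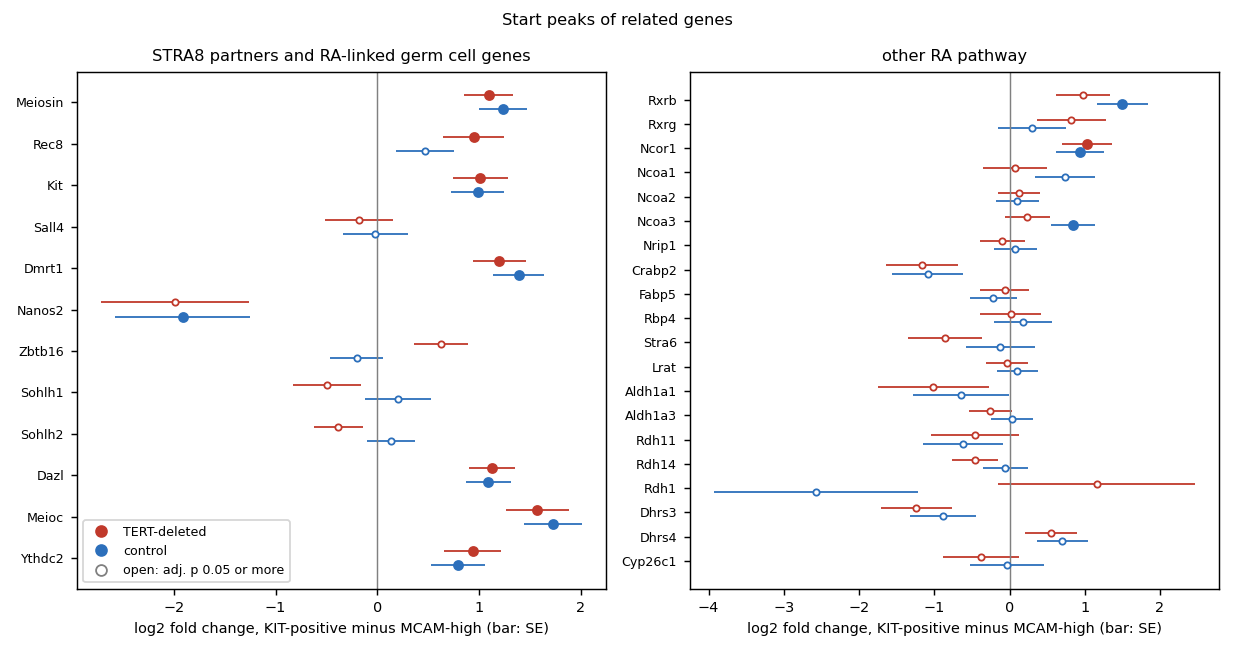
Log2 difference between KIT-positive and MCAM-high cells (x axis, bars are SE) at the peaks at the start or a gene end of 12 partners of STRA8 and germ cell genes (left) and of 20 of the 21 other tested retinoic acid pathway genes (right), with deleted mice in red and control mice in blue; filled points passed an edgeR adjusted p of 0.05. On the left 7 points are filled to the right of 0 in deleted and 6 in control mice, and on the right 1 and 3.

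The genes whose start peak was most like that of Stra8 over the 7 groups, by Pearson correlation of group means of log2(CPM + 1) among 13379 genes with a start peak of at least 5 CPM on average, were G3bp1, which encodes a stress granule protein (r = 0.995), D130051D11Rik (0.994), Myh9, which encodes a non-muscle myosin heavy chain (0.994), and Epb41 with Gm36157, which share 1 peak (0.993). The points are 7 group means that share libraries and scaling, and 321 genes (2.40%) had an r above 0.95. At G3bp1 the means were 87.6 and 118 CPM in deleted and control MCAM-high cells, 135 and 107 CPM in deleted and control MCAM-medium cells, 199 and 194 CPM in deleted and control KIT-positive cells and 49.97 CPM in later germ cells.

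Of the 52 peaks, 35 were tested in both fits, 6 only with the later germ cells, 1 only among the spermatogonia, and 10 in neither. The 6 peaks were at Stra8 (+6420), Rara (+3350 and -5147), Rarb (chr14:17078110-17078857), Rarg (-700) and Aldh1a2 (-1291). The peak tested only among the spermatogonia was that of Stra8 at -753. The 10 untested peaks had group means of at most 5.09 CPM. They were left out by the filter on low counts, so differences at them were not tested.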

How the data were processed

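The authors deposited whole-number counts of reads per peak for 22 libraries, not normalized, with peak positions per the file headers. FastQC, Bowtie2, SAMtools and Picard and the builds mm10, GRCm38 and hg19 are named per the submitters' processing notes, with no role; the peak caller, the counting tool, any Tn5 offset and any duplicate filter are not given in the sources used here. Between 48.8% and 73.9% of nonzero counts per library were even, and a share well above 50% is as when each fragment adds 2 reads. Counting error is then understated. The share was 49.3% to 49.9% in later germ cells. It reached 73.7% in deleted MCAM-medium, 70.5% in deleted KIT-positive and 73.9% in control KIT-positive cells, so libraries compared here differ in it. Peak positions are as deposited; whether their starts are 0-based is not stated.

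Groups were taken from titles and marker entries. Gene bodies, strands and promoter windows came from RefSeq tables of GRCm38.p6. A start peak overlapped the promoter window or, where none did, was the nearest within 1 kb. For Rdh10 and the listed genes without a window it was a peak within 1 kb of a gene end, which may be the far one. Exon, intron and UTR were not assigned. For tests, the quasi-likelihood F test of edgeR 4.0.16 (R 4.3.3) was used after filterByExpr by group and TMM scaling, and p-values were adjusted over all tested peaks by Benjamini-Hochberg, with 0.05 as threshold. A model held the 17 spermatogonial libraries (57289 peaks) and another the 13 heterozygous ones (73134 peaks), each with a mean per group. The SE was obtained from the log2 fold change and F. The method was tested on simulated data. Alternatives used DESeq2 1.42.0, its size factors, total counts, loess offsets, no filter, only the groups compared, the replicate number as a block, limma 3.58.1 voom with a random block, gene bodies without flanks, and leaving out each library.

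The members and lists were chosen with earlier results of these data known. Values in every library were given for start peaks and for the peak of each member with the smallest adjusted p; the internal Rara peak, the Stra8 peaks at -753, +1128, +6420 and +20752, the Rarb peak at chr14:16741273-16741927 and the Rarg peak at -594 were added after their values were seen. From the other lists, the 4 largest changes among those passing in control KIT-positive minus MCAM-high cells and in later germ cells minus KIT-positive cells were named, except for 1 gene that is not reported here.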

Additional observations from a re-analysis of the deposited data

Results flagged for a closer look

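The 5 later germ cell libraries were checked at 33 member peaks, those at starts and those called in any comparison, and at 2 peaks they held a library far from the others. At the Stra8 peak centred at +6420, later germ cell replicate 1 held 9.72 CPM, where the other later libraries held 5.48 to 6.65 CPM. At the narrow Rdh10 peak (chr1:16106512-16106715), later germ cell replicate 4 held 3.89 CPM, where the others held 1.10 to 1.48 CPM. Chance gives such a library in about 1 of 20 such checks.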

How the results depend on the processing

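Counts of called member peaks kept within 1.5 times their value under every scaling, filter, tool and grouping of peaks tried, and moved further only when a library was left out. Leaving out 1 library at a time gave 1 to 4 peaks for deleted and 2 to 5 for control KIT-positive minus MCAM-high cells, 1 to 2 for deleted and 0 to 4 for control KIT-positive minus MCAM-medium cells, and 21 to 28 and 22 to 24 for later germ cells minus control KIT-positive and MCAM-high cells. The comparisons with 0 calls kept 0. The count in deleted KIT-positive minus MCAM-high cells was 1 without MCAM-high replicate 2 and 2 without KIT-positive replicate 2. In control mice it was 2 and 3 without MCAM-high replicates 2 and 3, and 3 and 2 without KIT-positive replicates 1 and 3. Against MCAM-medium cells it was 0 without control MCAM-medium replicate 2, and 1 without deleted MCAM-medium replicate 1 or 3 or deleted KIT-positive replicate 1. With the replicate number as a block, 3 deleted and 4 control peaks passed against MCAM-high cells and 2 control peaks against MCAM-medium cells. The library names carry the same number across the populations of a genotype, which may mark a shared source. Deviations from group means of libraries with the same genotype and number correlated by -0.419 to 0.0531 over 16 pairs, with 0 over 0.1. In groups of 2 or 3 libraries such deviations are tied to each other, so these values cannot exclude a pairing. Of 929 values for 67 results at single peaks, 841 kept direction and call, 85 lost and 2 gained the call, and 1 turned its sign: the Rarb start peak in deleted KIT-positive minus MCAM-high cells, not called, ranged from -0.56 without MCAM-high replicate 2 to 0.0963 without deleted MCAM-high replicate 1 (edgeR adjusted p = 0.901). Of the 85 losses, 62 came from leaving out a library. The cause was not tested.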
